A study of Mus musculus with 8 samples.

Results

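The hormone genes of enteroendocrine cells were described in libraries of sorted Paneth cells. The members were 10 rows of the count table, chosen by symbol out of 53801 genes. They are Gip, Gcg, Cck, Sct, Pyy, Nts, Sst, Ghrl, Tac1 and Tph1. Libraries came from 4 β-catGOF; Mll1+/- mice (controls 1 to 4) and 4 β-catGOF; Mll1-/- mice (knockouts 1 to 4). In both genotypes a stabilized β-catenin without exon 3 and the loss of Mll1 were induced by a tamoxifen-dependent Cre under the Lgr5 promoter, so that the controls lack 1 copy of Mll1 and also carry the activated β-catenin. Mice were 4 to 6 wk old when tamoxifen (1 mg per injection in the sample labels) was given on 3 consecutive days, and cells were taken 10 d later. The Lgr5-driven Cre recombines a mosaic of crypts. The Mll1 genotype is taken from the labels. β-catGOF is named in the study's figure legends and not where the methods describe the sorted mice. From each mouse 300 viable EpCAM+ Cd24+ cells of intestinal crypts, also stained for the leukocyte marker CD45, were pooled and amplified with Smart-seq2, which copies polyadenylated RNA.

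Enteroendocrine cells are scattered hormone-producing cells of the gut epithelium. They arise from the same Lgr5+ stem cells as Paneth and goblet cells, through a progenitor that expresses the transcription factor Neurog3. Each cell stores a few peptide hormones or serotonin in dense-core granules and releases them when nutrients or other stimuli reach the gut lumen. CD24, used for the sort, is known on enteroendocrine cells as well as on Paneth cells. Because each library is a pool, fewer enteroendocrine cells and less hormone RNA per cell cannot be told apart.

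Sequences are shown for 4 members that stand for the patterns below: Sst and Gcg, which were high in some libraries and near 0 in others, Sct, which was present in every library, and Tph1, whose genotypes did not overlap. The last 14 codons of the Sst coding sequence, which encode the peptide somatostatin-14, lie in the final coding exon on the minus strand of GRCm38, chr16:23889732-23889773, within a coding sequence of 116 codons.
Sst, last coding bases: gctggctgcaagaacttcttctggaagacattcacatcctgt
Upstream sequences come from RefSeq (GRCm38.p6), which gave a window for 10 of 10 members. They were searched on both strands for TGACGTCA, the cAMP response element, for TATAAA, the TATA box, and for CANNTG, the E-box that factors such as Neurod1 bind. Sst held TGACGTCA, 48 bases before the RefSeq start, as did 1.55% of 32851 promoter windows of 250 bases, and the 30 bases around it (chr16:23890874-23890903, minus strand, inside the Ensembl span of the gene) are shown with the element in capitals.
Sst, element: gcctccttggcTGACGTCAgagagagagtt
The 250 bases before Gcg (chr2:62483654-62483903, minus strand) and before Sct (chr7:141279134-141279383, minus strand) held TATAAA on either strand, in capitals here, as did 12.4% of the windows. Tph1 (chr7:46672538-46672787, minus strand) held neither of these, and was the only member without CANNTG, which 66.2% of windows held. A match is a description of letters and no evidence of binding.
Gcg: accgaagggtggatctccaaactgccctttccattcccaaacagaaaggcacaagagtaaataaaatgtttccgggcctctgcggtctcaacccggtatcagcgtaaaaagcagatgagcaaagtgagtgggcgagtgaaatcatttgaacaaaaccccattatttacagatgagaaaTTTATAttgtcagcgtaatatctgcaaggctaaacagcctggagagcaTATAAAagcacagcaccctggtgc
Sct: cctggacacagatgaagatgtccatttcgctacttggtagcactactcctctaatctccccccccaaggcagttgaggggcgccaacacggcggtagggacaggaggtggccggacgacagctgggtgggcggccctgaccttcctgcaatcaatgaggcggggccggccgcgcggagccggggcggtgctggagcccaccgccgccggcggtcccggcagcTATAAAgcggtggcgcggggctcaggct
Tph1: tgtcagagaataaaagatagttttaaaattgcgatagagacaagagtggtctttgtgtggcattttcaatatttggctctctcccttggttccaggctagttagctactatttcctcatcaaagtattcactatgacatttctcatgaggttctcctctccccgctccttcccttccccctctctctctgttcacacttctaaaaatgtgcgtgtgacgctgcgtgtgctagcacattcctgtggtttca

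Totals on genes were between 13037832 and 14380240 per library. The level of a gene is its normalized CPM, its count scaled to the TMM-adjusted library size (not a share of the reads), and a gene is called seen in a library with more than 3 counts, which corresponds to 0.172 to 0.352 normalized CPM. A count of 0 therefore allows a level up to that limit, and the limit covers counting error only. All 16 Paneth markers were seen in all 8 libraries, with a summed level between 324475 and 999521 normalized CPM. Knockout 3 stood apart, with 19662 genes detected where the others had 22623 to 26074, 2.04% of counts on mitochondrial genes against 3.26% to 8.78%, and a TMM factor of 0.632 against 0.822 to 1.34. The targeted gene Kmt2a, which encodes Mll1, had 719, 469, 268 and 284 counts in controls 1 to 4 and 523, 447, 328 and 468 in knockouts 1 to 4. These counts cover all exons and leave the state of the targeted exons unknown.

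Hormone transcripts were seen in all 8 libraries, but in different combinations. Sct, Gip and Ghrl were seen in 8 of 8 libraries, Cck and Tac1 in 7, Gcg and Sst in 6, Pyy and Tph1 in 5 and Nts in 1. In the controls 9, 9, 8 and 9 of the 10 hormones were seen, and in the knockouts 10, 6, 4 and 6. The summed level of the 10 genes was 999, 2215, 1771 and 1201 normalized CPM in controls 1 to 4 and 931, 64.0, 2555 and 365 in knockouts 1 to 4. Knockout 3 thus had the fewest hormones and, after TMM scaling, the highest sum, and knockout 2 had the lowest sum. In raw counts the sum was higher in control 2 (27917) than in knockout 3 (21748).

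**Figure D1:**
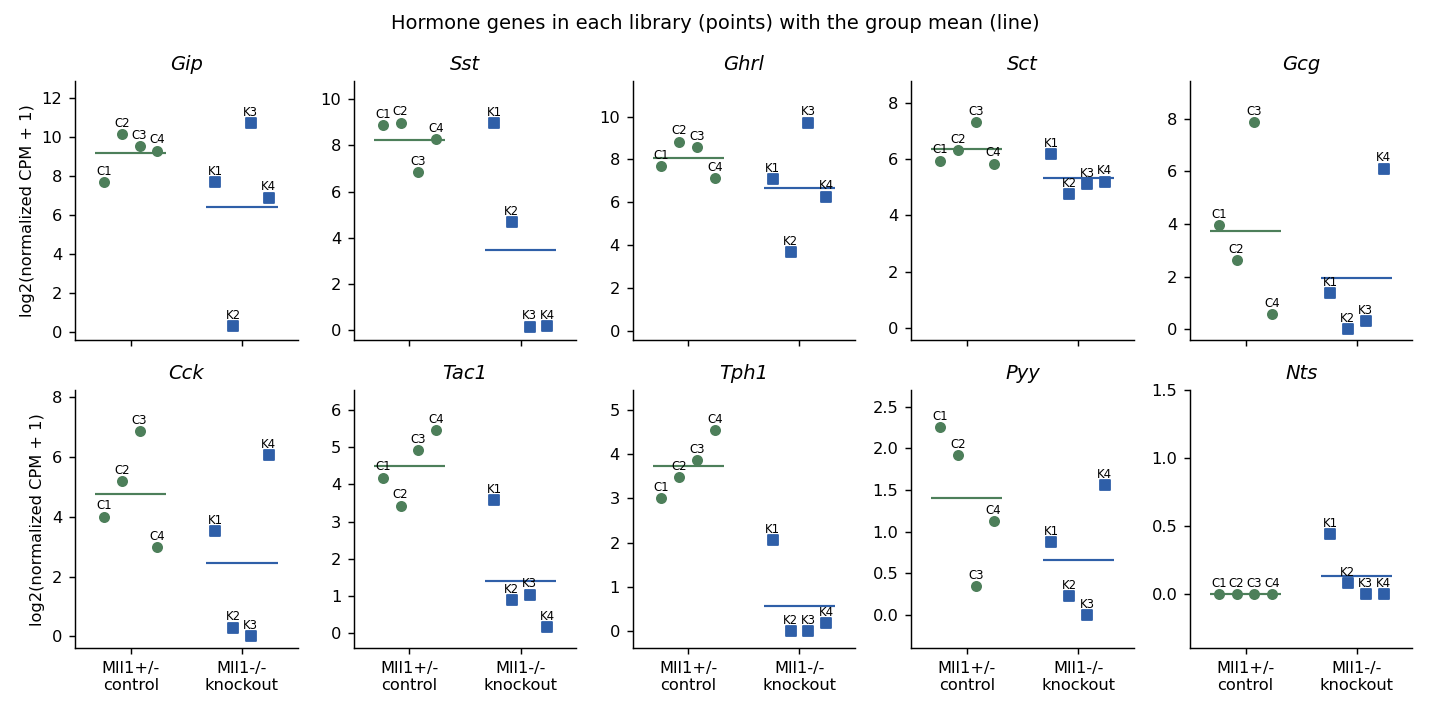
Level of each hormone gene, as log2(normalized CPM + 1), in controls (green circles, C1 to C4) and knockouts (blue squares, K1 to K4), with a line at the group mean of 4 mice; each panel has its own vertical scale. For Gip, Sst, Gcg and Cck the knockouts hold values near 0 and values within or above the range of the controls, and for Tph1 every knockout lies below every control.

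Comparing the genotypes, 9 of the 10 hormones passed the filter on low counts and were tested with edgeR's quasi-likelihood test on 13439 genes. A call needed an adjusted p no higher than 0.05 and a log2 fold change at or beyond 0.5 in either direction, and no hormone met both limits (0 of 9, where 25 of all tested genes, 0.186%, were called), and 0 of 9 passed an adjusted p of 0.1 (0.283% of all tested genes). At an unadjusted p under 0.05 there were 3, Tph1, Tac1 and Sct, all with a lower mean in the knockouts, where 2.53% of all tested genes were lower at that limit and 6.88% were past it in either direction. DESeq2's Wald test, limma-voom with a quality weight for each library, and edgeR with the library set as a covariate also called 0 (background 1.03%, 0.752% and 0.179%). All values given for limma-voom use these weights. All 9 fold changes were below 0, as were 49.1% over all tested genes, and their median log2 fold change was -1.38 against 0.01. Nts is not among the 9, and Tph1 passed the filter on the controls, so these counts describe the tested hormones and are not support for a direction. The median was -1.05 without knockout 2 and -1.45 without knockout 3.

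Gip, the glucose-dependent insulinotropic peptide of K cells, lies on the plus strand of chr11:96024545-96030831. It had 203, 1116, 733 and 625 normalized CPM in controls 1 to 4, and 203, 0.230, 1682 and 117 in knockouts 1 to 4. Knockout 2 was near 0, with 4 counts, and knockout 3 was above every control. Means were 669 ± 375 and 501 ± 792 (SD, n = 4 each), a difference smaller than the spread. On the log2 scale the fold change was -0.42 (standard error, SE, 1.59 and adjusted p = 0.995), and it lay between -2.65 (without knockout 3) and -0.01 (without knockout 2) when a library was left out. It was -1.14 with the library set as a covariate and -5.11 by limma-voom with quality weights.

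Gcg encodes proglucagon, from which L cells cut the peptides GLP-1 and GLP-2. The gene (chr2:62474530-62483650, minus strand) had 14.5, 5.16, 232 and 0.474 normalized CPM among controls and 1.6, 0, 0.235 and 67.8 among knockouts. A single library led each genotype, control 3 with 2588 counts and knockout 4 with 1117, and the groups overlapped. The difference was -1.84 in log2 (SE 2.2 and adjusted p = 0.960). It turned to 1.37 without control 3, was -6.56 without knockout 4 and was -3.59 by limma-voom.

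Cck, the cholecystokinin of I cells that makes the gall bladder contract, lies on chr9:121489824-121495694 (minus strand). Its level was 15.0, 35.2, 116 and 6.87 normalized CPM among controls and 10.4, 0.230, 0 and 66.3 among knockouts. Control 3 and knockout 4 were again the highest of their genotype, as for Gcg. A log2 fold change of -1.15 (SE 1.63 and adjusted p = 0.970) became 0.02 without control 3, -3.54 without knockout 4 and -2.98 by limma-voom.

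Sct, the secretin of S cells, which stimulates bicarbonate secretion, lies on chr7:141278330-141279133 (minus strand). It was the steadiest of the hormones, with 60.6, 78.4, 157 and 56.3 normalized CPM among controls and 71.8, 26.2, 33.4 and 35.7 among knockouts. Knockouts 2, 3 and 4 lay below every control, and knockout 1 lay within the controls. Means were 88.2 ± 47.1 and 41.8 ± 20.4 (SD, n = 4 each). The log2 fold change was -1.08 (SE 0.38, unadjusted p = 0.0150 and adjusted p = 0.531 from edgeR), and it lay between -1.47 and -0.64 whichever library was left out. Without a filter on low counts, where 0.783% of 37039 genes were called and 0.186% were called lower, Sct was called (log2 fold change -1.07, adjusted p = 0.000684).

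Pyy, the peptide YY of L cells, a satiety signal, was low throughout (chr11:102106676-102107832, minus strand). It had 60, 35, 3 and 15 counts in the controls and 14, 3, 0 and 32 in the knockouts, which is at most 3.76 normalized CPM. The genotypes overlapped, with a log2 fold change of -1.38 (SE 0.93 and adjusted p = 0.882) that was -2.44 without knockout 4 and -0.89 without control 1. Nts, the neurotensin of N cells (chr10:102481756-102490486, minus strand), had 0 counts in all 4 controls and in knockouts 3 and 4, 6 in knockout 1 and 1 in knockout 2. It did not pass the filter and was at or near the limit of detection in every library.

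Sst, the somatostatin of D cells that restrains the release of other hormones, lies on chr16:23889573-23890958 (minus strand). It had 472, 504, 113 and 308 normalized CPM among controls and 494, 24.6, 0.117 and 0.121 among knockouts. Knockout 1 was among the highest libraries, with 8323 counts, while knockouts 3 and 4 had 1 and 2 counts. Means were 349 ± 179 and 130 ± 243 (SD, n = 4 each). The log2 fold change was -1.43 (SE 1.92 and adjusted p = 0.969), and without knockout 1 it was -5.35 and did not pass either. It was -4.20 with the library set as a covariate and -3.51 by limma-voom.

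Ghrl encodes ghrelin, which stimulates appetite. The gene (chr6:113716119-113719880, minus strand) shares 15.9% of its exon bases with genes of the other strand, so that reads could belong to either. It had 206, 454, 377 and 137 normalized CPM among controls and 134, 11.7, 838 and 75.9 among knockouts. As for Gip, knockout 3 was the highest library and knockout 2 the lowest. The log2 fold change was -0.15 (SE 1.02 and adjusted p = 0.995), and its sign turned in 4 of the 8 leave-one-out fits, while it was -1.996 without knockout 3, -0.67 with the library set as a covariate and -2.25 by limma-voom.

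Tac1 and Tph1 belong to enterochromaffin cells. Tac1 (chr6:7554879-7565834, plus strand) encodes the precursor of substance P and neurokinin A. Its level was 17.1, 9.76, 29.1 and 42.5 normalized CPM among controls and 10.9, 0.861, 1.06 and 0.121 among knockouts. Knockout 1 lay inside the range of the controls and the other knockouts far below it. Means were 24.6 ± 14.3 and 3.23 ± 5.11 (SD, n = 4 each), with a log2 fold change of -2.89 (SE 1.02). From edgeR the unadjusted p was 0.0191 and the adjusted p was 0.579.

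Tph1 (chr7:46644641-46672537, minus strand) encodes tryptophan hydroxylase 1, the rate-limiting enzyme of serotonin synthesis in the gut. It had 7.08, 10.2, 13.6 and 22.4 normalized CPM among controls and 3.15, 0, 0 and 0.121 among knockouts, or 113, 129, 151 and 284 counts against 53, 0, 0 and 2. Every knockout lay below every control, which held for 1 of the 9 tested hormones and for 1.93% of all tested genes. Means were 13.3 ± 6.61 and 0.817 ± 1.55 (SD, n = 4 each). The log2 fold change was -3.92 (SE 1.01), with an unadjusted p of 0.00254 and an adjusted p of 0.316 from edgeR.

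Knockout 1 decided the calls of both enterochromaffin genes. Without it 2 of the 9 hormones were called, Tac1 at -5.24 in log2 (adjusted p = 0.0114) and Tph1 (adjusted p = 0.00117), where 0.152% of 13801 tested genes were called and 0.0652% were called lower. The 3 remaining knockouts had at most 2 counts of Tph1, so its fitted fold change of -7.88 depends on the prior count. Taken against a floor of 3 counts per library, Tph1 was at least 56.6-fold lower in these 3 knockouts than in the controls. Knockout 1 was the highest knockout for both genes, and without it both passed the filter on the controls. These calls and this bound are therefore a description and not support for a direction. Leaving out any of the 7 other libraries gave 0 called hormones, where 0.0792%, 0.0857%, 0.0709% and 0.107% of tested genes were called without controls 1 to 4 and 0.0795%, 1.08% and 0.123% without knockouts 2 to 4.

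**Figure D2:**
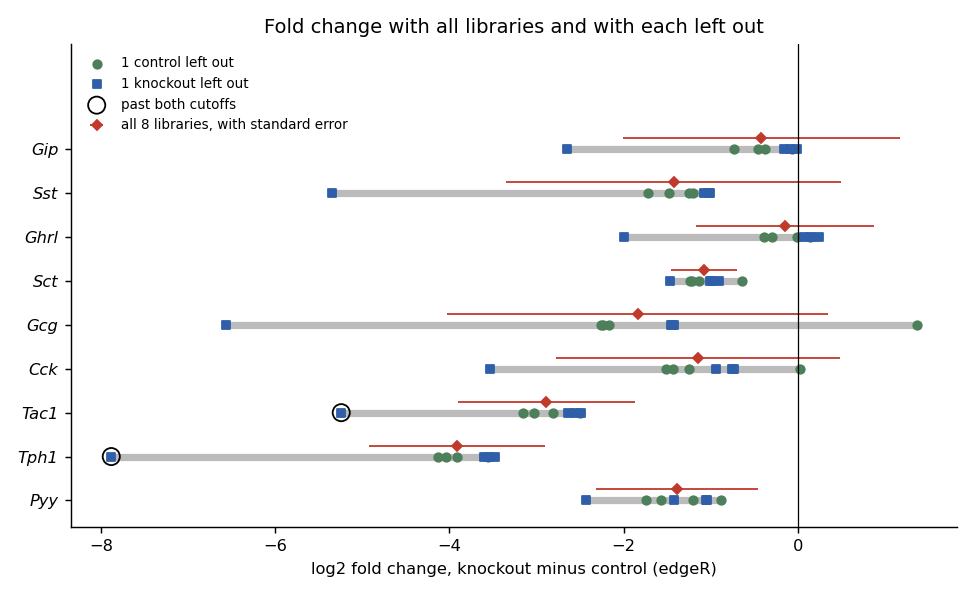
Log2 fold change (knockout minus control) of the 9 tested hormones with all 8 libraries (red diamonds, with the standard error) and with each library left out (green circles for a control, blue squares for a knockout; grey bars span the range). Open black circles mark the fits past both cutoffs, Tac1 and Tph1 without knockout 1; the range for Gcg runs from -6.56 to 1.37, whereas that for Sct stays between -1.47 and -0.64.

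The libraries carry label numbers in 2 runs, called library sets here: controls 1 and 2 with knockouts 1 and 2, and controls 3 and 4 with knockouts 3 and 4. Differences within a set were taken as means of log2(normalized CPM + 1) over 2 mice each. For Gcg they were -2.60 in the first set and -1.01 in the second, and for Cck -2.69 and -1.88. For Tph1 they were -2.23 in the first set and -4.12 in the second, and for Tac1 -1.57 and -4.57. Sct differed by -0.65 and -1.42, and Sst by -2.12 and -7.39. Gip differed by -4.91 in the first set and -0.61 in the second, while Ghrl differed by -2.89 and 0.15 and Pyy by -1.53 and 0.04. With the library set as a covariate 0 hormones were called.

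Between mice of the same genotype these genes varied more than most. The pooled SD within genotype of log2(normalized CPM + 1) had a median of 1.85 over the 9 tested hormones, against 0.37 over all tested genes and 0.31 over the 4329 of them with a mean of at least 10 CPM. For 7 of the 9 it was above the 95th percentile of tested genes (0.78). Gip, with 3.19, Sst, with 3.06, and Gcg, with 2.96, were the most variable, and Sct, with 0.64, was the least.

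**Figure D3:**
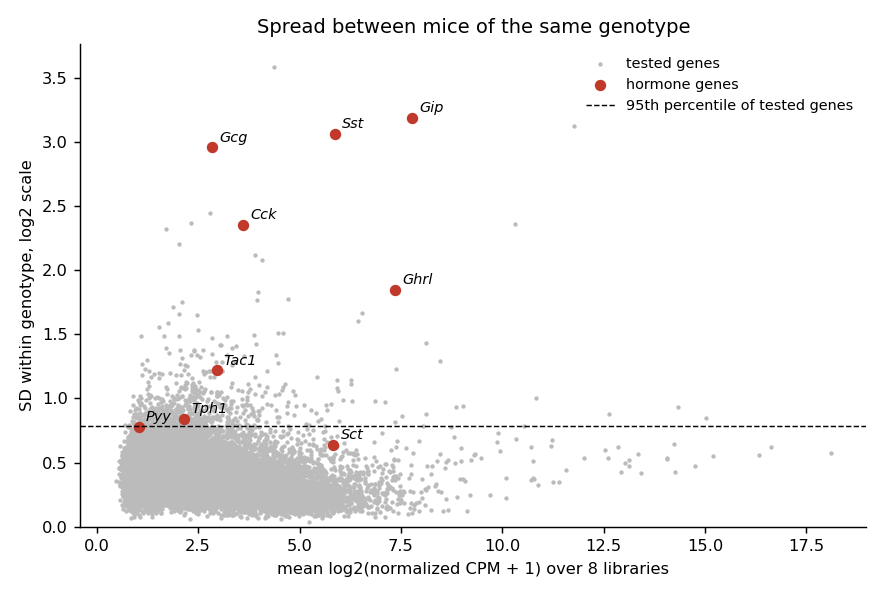
SD within genotype against mean level for all tested genes (grey) and for the 9 tested hormones (red), both on the log2(normalized CPM + 1) scale over 8 libraries. The dashed line is the 95th percentile of tested genes (0.78); Sct and Pyy lie below it and the other 7 hormones above it.

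To compare hormones with each other, levels were divided by exon length and are normalized CPM per kb. In the controls the order of the means was Gip (974 ± 547), Sst (484 ± 248), Ghrl (272 ± 136), Sct (137 ± 73.0), Gcg (42.2 ± 75.6), Cck (33.1 ± 38.1), Tac1 (7.24 ± 4.21), Pyy (3.17 ± 2.48), Tph1 (2.16 ± 1.07) and Nts, which was at 0. Of the 9 pairs of neighbours in this order, 2 differed by more than the larger of their SDs, Sct against Gcg and Tph1 against Nts. In the knockouts Gip (729 ± 1152) was followed by Ghrl (246 ± 357), Sst (180 ± 337), Sct (64.8 ± 31.7), Cck (14.7 ± 24.3) and Gcg (11.6 ± 22.5). Pyy (1.17 ± 1.39), Tac1 (0.950 ± 1.50), Tph1 (0.132 ± 0.252) and Nts (0.0829 ± 0.137) were last, and 1 of the 9 pairs, Sct against Cck, differed by more than the larger SD.

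Within libraries the leading hormone differed. Gip took the largest share of the summed level per kb in controls 2, 3 and 4 (55.9%, 51.5% and 57.7%) and in knockouts 3 and 4 (74.7% and 43.0%). Sst led in control 1 (51.6%) and knockout 1 (55.7%), and Sct in knockout 2 (46.9%), where the whole sum was 86.6 normalized CPM per kb against 395 to 3277 in the other 7 libraries. Gip held 23.3% of the sum in control 1 and 24.05% in knockout 1, and Ghrl 15.1% and 10.1%. In knockout 3 Gip and Ghrl (23.7%) made up nearly the whole sum, with Sct next at 1.58%.

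**Figure D4:**
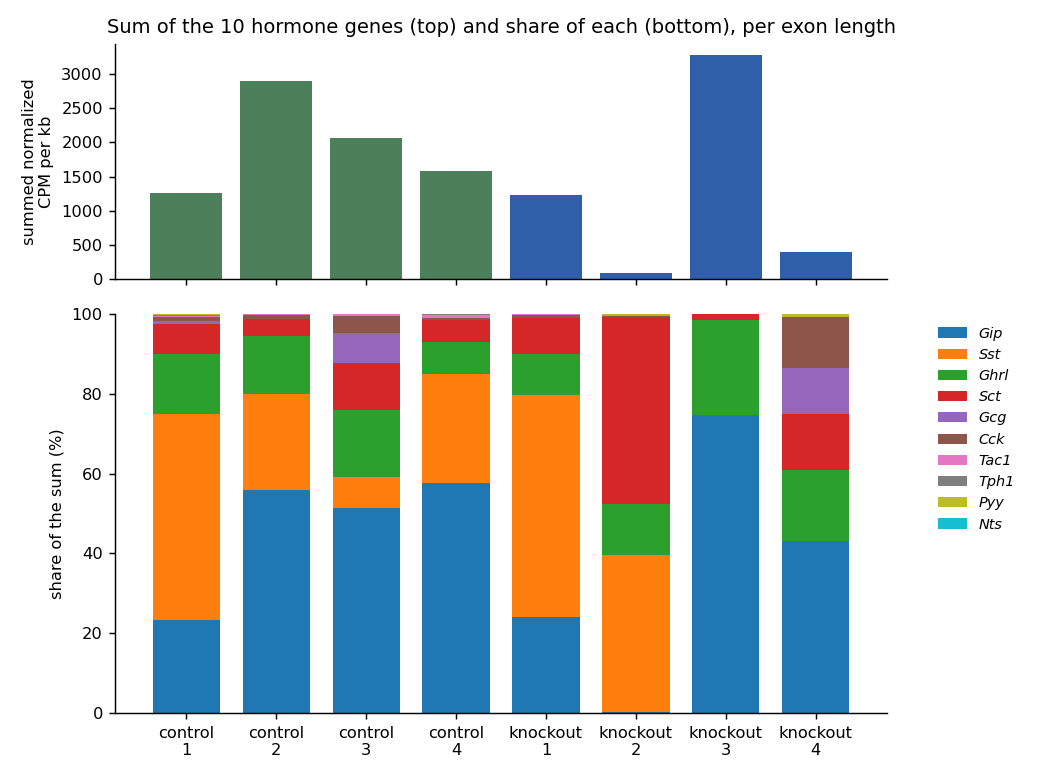
Sum of the 10 hormone genes in normalized CPM per kb of exon (top; controls green, knockouts blue) and the share of each gene in that sum (bottom) in each library. The leading hormone is Sst in control 1 and knockout 1, Sct in knockout 2 and Gip in the other 5 libraries.

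Genes that handle hormones were read from the same fit, as lists. The background for the counts of every list is the share over all tested genes, of which 0.186% were called, 49.1% had a fold change below 0 and 6.88% an unadjusted p under 0.05, with 2.53% lower and past that limit. Of 14 genes that process peptides or handle monoamines, 14 were tested, 0 were called, 11 had a fold change below 0 and 6 had an unadjusted p under 0.05, all 6 lower in the knockouts, and the median log2 fold change was -0.47 (-0.75 without knockout 3) against 0.01 for all tested genes. Pcsk1, the prohormone convertase of enteroendocrine cells, had 9.72, 13.0, 29.8 and 25.6 normalized CPM among controls and 10.3, 7.18, 6.81 and 9.95 among knockouts (log2 fold change -1.18, SE 0.34 and adjusted p = 0.390). Control 1 lay inside the knockouts' range and the other 3 controls above it. Ddc, which makes serotonin from the product of Tph1, had 34.4 ± 7.90 and 17.5 ± 10.5 normalized CPM (SD, n = 4 each) and differed by -0.99 in log2 (adjusted p = 0.581). It was called without knockout 3 (log2 fold change -1.45, adjusted p = 0.0265) and by limma-voom, and Ddc, Pcsk1 and Mboat4 were called without a filter. Cpe, a carboxypeptidase that trims prohormones, had 58.6 ± 44.6 and 19.5 ± 9.84, a log2 difference of -1.59 (adjusted p = 0.533). Mboat4, the acyltransferase that activates ghrelin, had 5.95, 4.05, 7.81 and 4.26 normalized CPM among controls and 1.90, 0.172, 0.705 and 4.31 among knockouts, so that it had 6 counts in knockout 3, where Ghrl was highest. Pam, which amidates peptides, was the third of the most abundant members and differed by -0.51 in log2 (adjusted p = 0.771).

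Of 10 proteins of the secretory granule and its release, 9 were tested, 0 were called, 8 had a fold change below 0 and 4 had an unadjusted p under 0.05, all 4 lower, and the median over the list was -0.87 in log2 (-1.46 without knockout 3). Chgb, a chromogranin and the most abundant of the list, had 70.2, 111, 195 and 236 normalized CPM among controls and 64.5, 12.8, 123 and 29.9 among knockouts (log2 fold change -1.42, adjusted p = 0.670). Chga, the chromogranin used as a general enteroendocrine marker, had 11.5, 23.0, 28.8 and 38.8 against 13.5, 1.15, 5.52 and 5.58, with a log2 fold change of -1.98 (SE 0.57 and adjusted p = 0.387). Knockout 1 lay inside the controls for Chga and the other knockouts lay below them. DESeq2's Wald test called Chga (adjusted p = 0.0361). Scgn, a calcium sensor, differed by -0.78 in log2 (adjusted p = 0.897), and Snap25, a SNARE protein of vesicle fusion, was called in the fit without knockout 3 and in no other (log2 fold change -2.11, adjusted p = 0.0466). Summed, the granule list was at 123 to 350 normalized CPM in the controls and at 127, 24.98, 205 and 63.5 in knockouts 1 to 4. Knockout 2 was thus the lowest library for the hormones and for the granule list.

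Transcription factors of the enteroendocrine lineage numbered 17, of which 16 were tested and 15 had a fold change below 0, with a median log2 fold change of -1.28. None was called, 1 passed an adjusted p of 0.1, and 6 had an unadjusted p under 0.05, of which 5 were lower and 1 higher. Neurod1, a factor downstream of Neurog3, had 24.8, 22.1, 56.9 and 42.1 normalized CPM among controls and 12.5, 3.73, 5.40 and 8.43 among knockouts (log2 fold change -2.27, SE 0.40 and adjusted p = 0.0629). Every knockout lay below every control. It passed both cutoffs without knockout 1 (adjusted p = 0.0363), in DESeq2, in limma-voom, without a filter and with at least 10 counts in every library, and it shares 13.0% of its exon bases with other genes. Neurog3, the factor that starts the lineage, had 20, 16, 27 and 47 counts in the controls and 12, 6, 0 and 17 in the knockouts (log2 fold change -1.96, adjusted p = 0.577). In normalized CPM its groups did not overlap, nor did those of Insm1 (log2 fold change -1.78, adjusted p = 0.338, and called by DESeq2 with an adjusted p of 0.0300 and without a filter), so that 3 of the 16 tested factors were lower in every knockout than in every control, where 1.93% of all tested genes were, and 16.3% of the exon bases of Neurog3 are shared with a gene of the other strand. Isl1 differed by -0.80 in log2 (adjusted p = 0.853).

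Prox1, a homeobox factor of the list and its most abundant member, was the 1 tested factor with a fold change above 0. It had 15.6, 19.2, 27.3 and 14.7 normalized CPM among controls and 122, 112, 24.3 and 73.4 among knockouts. Knockouts 1, 2 and 4 were above every control, and knockout 3 was within the controls. The log2 fold change was 2.12 (SE 0.42 and adjusted p = 0.101), and without knockout 3 it was 2.42 (adjusted p = 0.000304). DESeq2, limma-voom and the fit without a filter also called Prox1. Prox1 made up 112 of the list's summed 134 normalized CPM in knockout 2 and 24.3 of 126 in knockout 3. Without Prox1 the sum of the list was lowest in knockout 2.

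Few receptors for the same hormones were seen, 7, 7, 6 and 6 in controls 1 to 4 and 4, 3, 3 and 3 in knockouts 1 to 4. This difference was not tested. Of 26 receptor genes 2 passed the filter, Sort1 and Sstr3, at -0.17 and -0.29 in log2 (adjusted p = 0.929 and 0.986), and 0 were called. Sort1, the sorting receptor that also binds neurotensin, had 42.7 ± 5.74 normalized CPM among controls and 37.8 ± 3.37 among knockouts (SD, n = 4 each). Gipr, the receptor of Gip, had at most 19 counts in a library, and Npy4r and Ntsr2 had 0 in all 8. Of 14 nutrient sensors 6 were tested and 0 were called, 3 with a fold change above 0 and 3 below, and 4 had an unadjusted p under 0.05, 2 higher and 2 lower in the knockouts. Slc5a1, the intestinal glucose transporter, had 13.6 ± 2.65 and 7.94 ± 3.28 normalized CPM (log2 fold change -0.77, adjusted p = 0.662). Ffar2, a receptor of short-chain fatty acids, had 7.29 ± 0.710 and 8.92 ± 2.58 (log2 fold change 0.28, adjusted p = 0.924). Gpr119, a lipid receptor, was high in knockout 3 only, with 149 counts against 1 to 32 in the other 7 libraries.

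**Figure D5:**
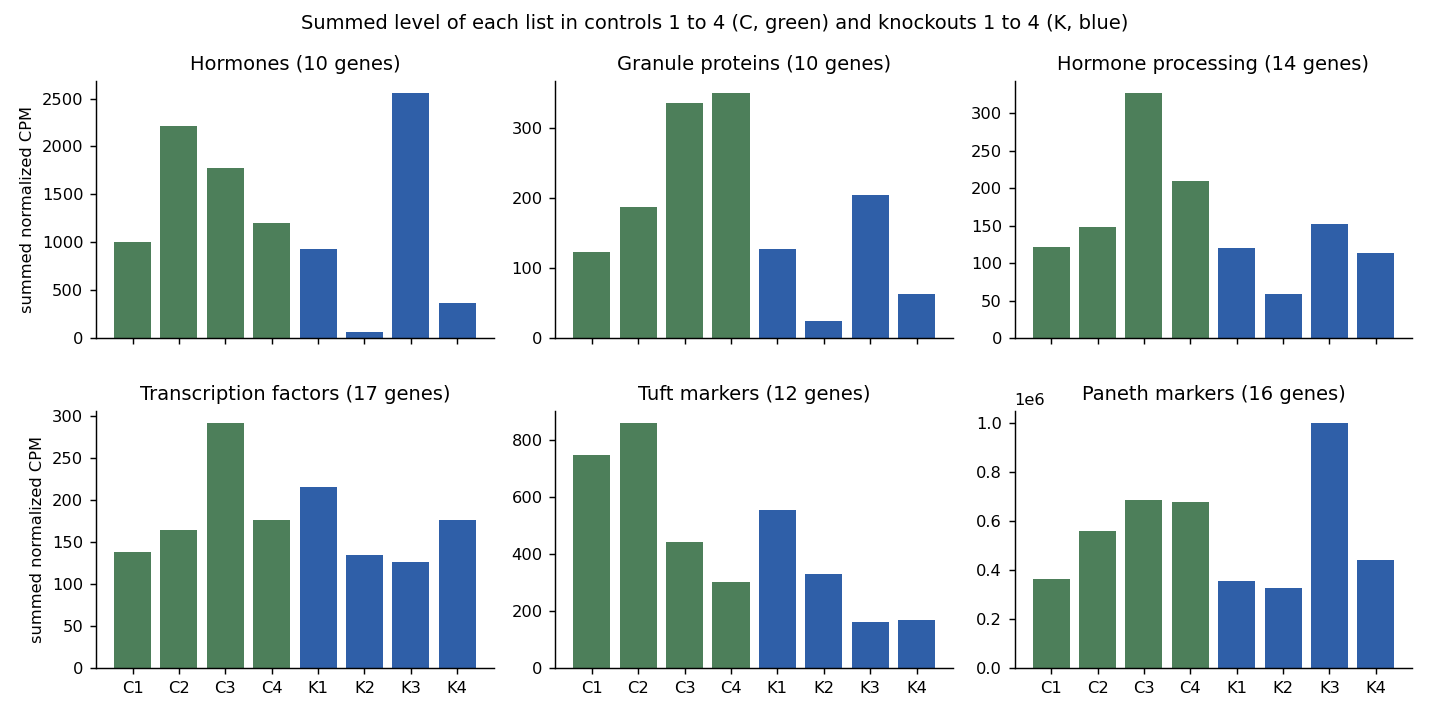
Summed normalized CPM of the 10 hormones, of the granule, processing and transcription factor lists, and of tuft and Paneth markers in controls 1 to 4 (C, green) and knockouts 1 to 4 (K, blue). Knockout 2 is lowest for hormones, granule proteins, hormone processing and Paneth markers, and knockout 3, on this TMM-scaled level, is highest for hormones and Paneth markers and lowest for transcription factors and tuft markers. Most of the transcription factor sum in knockout 2 is Prox1, which unlike the other tested factors had a fold change above 0. Without Prox1 that sum is lowest in knockout 2.

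Markers of other cells that the gate could hold are given beside these values, and their part in the hormone values was not tested. Tuft markers, 12 of 12 seen in at least 1 library, had a summed level of 302 to 857 normalized CPM among controls and 159 to 552 among knockouts, and 10 of the 11 tested had a fold change below 0 (median log2 -0.83, 0 called). The most abundant were Rgs13, Sh2d6 and Dclk1, and Rgs13, with non-overlapping groups, differed by -1.47 in log2 (adjusted p = 0.171) and was called without knockout 1 (0.0283), with the library set as a covariate (0.0254), by DESeq2 (0.00309) and without a filter. Enterocyte markers summed to 181 to 379 in the controls and 101 to 274 in the knockouts, with 8 of 9 tested below 0 (median log2 -0.77, 0 called). At an unadjusted p under 0.05 in edgeR there were 4 enterocyte, 2 tuft and 2 goblet markers, all lower in the knockouts, and 0 Paneth markers. Stem cell markers summed to 763 to 1586 and 326 to 1050 (median log2 0.00), goblet markers to 10477 to 23307 and 9561 to 25194 (0.12), and Paneth markers to 361381 to 686484 and 324475 to 999521 (-0.11), each with 0 called. Without knockout 3 the medians were 0.07 for stem cell, -0.37 for goblet and -0.60 for Paneth markers, so that the goblet median turned its sign. Fabp1 and Fabp2 were among the most abundant of the enterocyte list, and Fabp2, a fatty acid binding protein, had 35.8 ± 5.59 and 17.0 ± 7.62 normalized CPM (log2 fold change -1.07, adjusted p = 0.279, and called without knockout 4, by DESeq2, by limma-voom and without a filter, with adjusted p = 0.0238, 0.0422, 0.0294 and 0.00156). Olfm4, Slc12a2 and Smoc2 led the stem cell list, of whose 10 members 5 had a fold change above 0 and 5 below, with 3 in each direction at an unadjusted p under 0.05. In it Olfm4 differed by -1.11 in log2 (adjusted p = 0.671) and Slc12a2, lower in every knockout than in every control, by -0.85 (adjusted p = 0.468, and called without a filter with 0.00879). Rnf43, higher in every knockout than in every control, differed by 0.87 (adjusted p = 0.272, and called by DESeq2 with 0.0386), and Axin2 by 0.90 (adjusted p = 0.505, and called by limma-voom with 0.0357 and without a filter with 0.0134). Tnfrsf19 differed by 1.36 in log2 (adjusted p = 0.230, and called without knockout 3, by DESeq2, by limma-voom and without a filter, with adjusted p = 0.00187, 0.0128, 0.00864 and 1.66e-05). Spink4, Retnlb and Agr2 led the goblet list and Defa24, Defa30 and Lyz1 the Paneth list. On the TMM-scaled level the hormone sum was highest in knockout 3, which also had the highest Paneth marker sum, and lowest in knockout 2, which had the lowest.

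Markers of cells outside the epithelium were low. Immune markers summed to between 12.0 and 52.1 normalized CPM in the 8 libraries and Cd3d was at 0 in all of them, with H2-Aa, Cd74 and Ptprc as the most abundant. Mast cell markers, which bear on Tph1, had 0 counts of Tpsb2 and Fcer1a in all 8 libraries and 1 of Cpa3 in knockout 3, and their sum of 38.9 to 55.3 was mostly Kit, followed by Ms4a2 and Hdc. Ms4a2 had 1 count in each control and 0, 1, 48 and 2 in knockouts 1 to 4, and was called higher without a filter (adjusted p = 0.0148). Markers of enteric neurons and glia, which bear on Tac1 and Nts, summed to between 8.86 and 13.5, with Sox10 at 0 in all 8 libraries and Chat and Ret among the most abundant. Of the 5 tested neuron and glia markers 4 had a fold change below 0, as Tac1 did, and the median was -0.78 in log2 with 0 called. Elavl4 was lower in every knockout than in every control, with 1.56 ± 0.242 and 0.669 ± 0.475 normalized CPM (log2 fold change -1.16, adjusted p = 0.771). Uchl1 had 2, 0, 2 and 0 counts in controls 1 to 4 and 10, 23, 35 and 7 in knockouts 1 to 4, and was called higher without a filter (adjusted p = 0.00270). Whether epithelial cells express some genes of the mast cell and neuron lists was not tested. The part of these markers in the values of Tac1, Nts and Tph1 was not tested either. Stromal markers, led by Pecam1, Lum and Col1a1, summed to between 4.42 and 7.52.

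Genes most like each hormone across the 8 libraries were sought by Pearson's r of log2(normalized CPM + 1) among the tested genes. These are the highest of 13438 values each, over libraries that share depth and cell make-up, and are given as a description. For Gip they were Pclo (0.97), Prnp (0.97) and Rfx6 (0.96), and for Ghrl Eif4e3 (0.99), Alkbh6 (0.95) and Gsto1 (0.95). Rfx6 had 1.32 normalized CPM in knockout 2 and 19.1 in knockout 3, the same low and high knockouts as for Gip. Sst was followed most closely by Abhd18 (0.97), Epb41l1 (0.97) and Iapp (0.97), the gene of islet amyloid polypeptide, a peptide co-released by some endocrine cells. Iapp had 267, 287, 41 and 164 counts in the controls and 262, 20, 0 and 0 in the knockouts, and was at 0 in the knockouts where Sst had 1 and 2 counts. Tac1 had Gm48706 (0.98), Tph1 (0.96) and Rab3c (0.96), and Tph1 had Mmaa (0.96), Tac1 (0.96) and Rab3c (0.96), so that both enterochromaffin genes named each other. Sct was closest to Mapre2, Cnr1 and Plcxd3 (0.95 each). Gcg (Mrrf 0.95, Gm37289 0.94, Ggnbp2 0.93), Cck (Abca5 0.98, Cpt2 0.96, Crebl2 0.96) and Pyy (Gm45733 0.96, Med16 0.96, Dap3 0.95) were matched by genes that are in none of the enteroendocrine lists. Among the 20 genes most like each hormone, the enteroendocrine lists held 4 for Gip and 4 for Tph1, 3 for Ghrl and 3 for Sct, 2 for Sst and 2 for Tac1, 1 for Gcg and 0 for Cck and Pyy.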

How the data were processed

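RNA of 300 sorted Paneth cells per mouse was sequenced in 8 libraries, 4 per genotype, grouped by the genotype in the labels. The authors aligned reads to mm10 with GSNAP and counted uniquely mapped reads per gene of Ensembl release 92 with featureCounts 1.6.3 (bcl2fastq 2.19.1 in the submitters' processing notes). The deposited values are raw counts, without normalization. The strand setting of the counting is not given in the sources used here. Symbols were matched for 53620 of 53801 genes, and 92 spike-in rows with at most 11 counts per library were left out. Totals were 13037832 to 14380240, and no pair of libraries agreed within sampling noise (smallest chi-square per degree of freedom 12.13).

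From the counts, TMM factors and quasi-likelihood fits (robust) were computed with edgeR 4.0.16 in R 4.3.3 for 13439 genes that passed filterByExpr (minimum count 10, minimum total 15), with Benjamini-Hochberg adjustment. The study used DESeq2, which was an alternative here (1.42.0), as was limma-voom with a quality weight for each library (limma 3.58.1). Standard errors were approximated as the size of the log2 fold change over the square root of F. Calls needed an adjusted p up to 0.05 together with a log2 fold change beyond 0.5 up or down. Levels between genes were compared per kb of the exon length in the count table. The common biological coefficient of variation was 0.376. The default edgeR, DESeq2 and limma-voom fits were tested on simulated data with the same dispersion for all genes.

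Named were the 10 hormones and, from each other list, members called with all 8 libraries or with 1 left out, the 3 most abundant and defining markers at 0. Some members that this rule names are not reported here. Further members named in the text were chosen after their values were seen. The 3 tested genes most like each hormone seen in at least 5 libraries were named too. The members and lists were chosen with earlier results of these data known. Of 16 other gut peptides 15 were analysed here. Replicate numbers were given in accession order and pair no samples. The titles of control 4 and knockout 4 share a number, which the labels do not explain and which was not used. The methods call the sorted mice littermates, without saying which mice share a litter. P-values set each difference between genotypes against an estimate of the spread between these libraries.

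Alternatives were DESeq2's size factors, no filter, DESeq2, limma-voom with quality weights, a minimum of 10 counts in each library, library sizes that leave out the top 50 genes, the library set as a covariate, an adjusted p of 0.1 and each library left out.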

Additional observations from a re-analysis of the deposited data

Results flagged for a closer look

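For the hormones, their sum and other library values, 38 groups of 4 libraries were compared by the gap between the highest or lowest library and its nearest neighbour, as a share of the group's range. In 9 groups, all of them among the 20 groups of single hormones, the gap was above Dixon's 95% critical value. In all 9 the library apart was the highest. For normally distributed values chance gives about 1 in 20. The levels were compared without logs and are skewed in many groups, so the 9 cannot be set against that rate. Since the same libraries enter many of these groups, they do not count as separate trials.

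Knockout 1 stood apart from the other knockouts for Sst, with 494 normalized CPM against 0.117 to 24.6 (gap 0.951 of the range), for Tph1, with 3.15 against 0 to 0.121 (0.961), for Tac1, with 10.9 against 0.121 to 1.06 (0.913), and for Nts, with 0.356 against 0 to 0.0574 (0.839). Single counts set the gap of Nts. Knockout 3 was the highest knockout for Gip, with 1682 against 0.230 to 203 (0.879), and for Ghrl, with 838 against 11.7 to 134 (0.852). Knockout 4 was highest for Gcg, with 67.8 against 0 to 1.6 (0.976), and for Cck, with 66.3 against 0 to 10.4 (0.843). Among the controls, control 3 stood apart for Gcg, with 232 against 0.474 to 14.5 (0.940). Summed over the 92 spike-in rows, which were used in no comparison, control 3 had 5 counts and knockout 2 had 11. The limit of 3 counts holds for a single gene and not for these sums.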

How the results depend on the processing

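Over 128 other fits of single hormones, 118 kept their direction and stayed uncalled, and 1, Gcg in DESeq2, kept its direction but had no adjusted p. Among the 118, some fits of Gip and Ghrl passed the fold limit but not the limit on the adjusted p. The 6 that changed sign were Gcg (1.37) and Cck (0.024) without control 3 and Ghrl without control 2 (0.13), knockout 1 (0.06), knockout 2 (0.24) or knockout 4 (0.16), and the 3 newly called were Sct without a filter and Tac1 and Tph1 without knockout 1. The number of hormones called was 0, 1 without a filter, and 0 to 2 with each library left out. Fold changes of single hormones with each library left out ran from -6.56 to 1.37 for Gcg, -3.54 to 0.02 for Cck and -1.996 to 0.24 for Ghrl. At least 10 counts in every library left Sct and Ghrl among those tested. The library set covariate moved the log2 fold change of Sst from -1.43 to -4.20, that of Gip to -1.14 and that of Ghrl to -0.67. Limma-voom with quality weights moved Gip to -5.11, Ghrl to -2.25, Cck to -2.98, Sst to -3.51 and Gcg to -3.59. It changes the method and the weight of each library together. The cause was not tested.

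Over all genes 25 were called, 290 without a filter, 13 with at least 10 counts in every library, 138 by DESeq2, 101 by limma-voom, 38 at an adjusted p of 0.1, and 10 to 152 with each library left out. Without a filter, calls were 1 for other gut peptides, 3 for hormone processing, 1 for granule proteins, 5 for transcription factors, 1 for receptors, 1 for nutrient sensors, 2 for tuft, 1 for enterocyte, 3 for stem cell, 1 for mast cell and 1 for neuron and glia markers. DESeq2 called 1 granule gene, 3 transcription factors, 1 tuft, 1 enterocyte and 2 stem cell markers. Limma-voom called 1 processing gene, 2 transcription factors, 1 enterocyte and 2 stem cell markers. The library set covariate gave 1 tuft marker, at least 10 counts in every library 1 transcription factor, and an adjusted p of 0.1 also 1. With each library left out, other gut peptides, hormone processing, granule proteins, transcription factors, tuft, enterocyte and stem cell markers had 0 to 1 calls.

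No paired analysis was possible because control 4 and knockout 4 are the only libraries that share a number in their titles, and no source says which mice were littermates of which. The library set covariate blocks on the 2 runs of label numbers, not on pairs of mice. A sum of counts cannot show whether few cells or many carried a hormone, and for Pyy and Nts the depth limits any comparison.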

Other observations

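Npy, neuropeptide Y, a relative of Pyy, had 0 counts in all 4 controls and 56, 23, 0 and 45 in knockouts 1 to 4, with a mean of 1.84 ± 1.49 normalized CPM in the knockouts (SD, n = 4). Against a floor of 3 counts per control library it was at least 7.91-fold higher. It did not pass the filter with all 8 libraries. It was called without a filter (adjusted p = 2.16e-07 from edgeR) and without knockout 3 (adjusted p = 0.00550), the library where it was at 0. Npy passed the filter there on the knockouts alone, after the knockout that had none was left out, so that call is a description and not support for a direction.

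Of the 5 other peptides tested, 0 were called, with a median log2 fold change of -0.08, which was -0.60 without knockout 3. The most abundant were Guca2b and Guca2a, the guanylins, and Nucb2, the precursor of nesfatin, with log2 fold changes of 0.05, 0.38 and -0.08. Cartpt, a peptide of neurons and some endocrine cells, had 13, 22, 12 and 0 counts in the controls and 13, 2, 0 and 0 in the knockouts. Insl5 and Ppy had 0 counts in all 8 libraries.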
